A study of Mus musculus with 12 samples.

Results

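The genes of the platelet-derived growth factor (PDGF) system were followed in mouse embryonic stem (ES) cells and embryoid bodies. They are the receptor genes Pdgfra and Pdgfrb and the ligand genes Pdgfa, Pdgfb, Pdgfc and Pdgfd. These 6 genes were taken by name from the 19938 genes measured, each by its single probe set: 10522503 for Pdgfra and 10535043 for Pdgfa (both chromosome 5), 10456046 for Pdgfrb (chromosome 18), 10430660 for Pdgfb (chromosome 15), 10492689 for Pdgfc (chromosome 3) and 10583021 for Pdgfd (chromosome 9). The 12 samples came from a clone of the mouse ES cell line D3 and fall into 4 groups of 3, numbered as biological replicates: undifferentiated cells at day 0 (ES), embryoid bodies at day 4 (EB), and embryoid bodies labelled day 4 plus 12 h with the solvent DMSO (DMSO) or with all-trans retinoic acid at 5 micromolar (ATRA). Embryoid bodies are aggregates formed in bacteriological dishes without the cytokine LIF, and all samples come from that 1 clone. From the labels it is unclear if the 12 h of treatment ended at day 4 or began then. Differences of DMSO against EBs, called "with DMSO" below, can thus hold both the solvent and added time, which cannot be told apart. Total RNA was hybridised to Affymetrix arrays, and values are on a log2 scale.

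PDGF ligands are secreted dimers that bind receptor tyrosine kinases and drive growth, survival and migration of mesenchymal cells. PDGF-A and PDGF-C act mainly through the alpha receptor, and PDGF-D mainly through the beta receptor, while PDGF-B binds both. PDGF-C and PDGF-D are secreted with an inhibitory CUB domain that a protease has to remove. In the early mouse embryo the alpha receptor marks primitive endoderm and later paraxial mesoderm. The beta receptor is best known from pericytes, smooth muscle and fibroblasts. Retinoic acid is the active form of vitamin A and acts through nuclear receptors that bind DNA.

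Pdgfa and Pdgfc were the members that fell with ATRA, so the 250 bases before their annotated starts are shown, from RefSeq on GRCm38.p6. Capitals mark matches, on either strand, to a retinoic acid receptor half-site, a GATA motif, a GC box (GGGCGG) or a TATA box (TATAAA). The half-site was searched as AGGTCA or as GGGTCA, and also as AGTTCA or as GGTTCA. The GATA motif was searched as AGATAA or as AGATAG, and also as TGATAA or as TGATAG. The Pdgfc window is chr3:81036166-81036415 on the plus strand. The Pdgfa window is chr5:138994945-138995194 on the minus strand, before the more upstream of the 2 starts listed for that gene.
Pdgfc: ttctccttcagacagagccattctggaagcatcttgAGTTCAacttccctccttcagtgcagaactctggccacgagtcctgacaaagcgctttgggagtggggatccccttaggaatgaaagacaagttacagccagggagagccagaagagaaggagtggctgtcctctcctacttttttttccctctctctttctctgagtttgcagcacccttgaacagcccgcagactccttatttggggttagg
Pdgfa: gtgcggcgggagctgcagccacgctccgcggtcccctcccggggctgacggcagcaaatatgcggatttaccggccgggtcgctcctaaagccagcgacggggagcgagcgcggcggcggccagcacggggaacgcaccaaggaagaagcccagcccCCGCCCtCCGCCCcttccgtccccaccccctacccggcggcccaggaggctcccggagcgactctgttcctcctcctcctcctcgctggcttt

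The Pdgfc window held 1 half-site, AGTTCA, 214 bases before the start, and no other match. The Pdgfa window held 2 GC boxes, both as GGGCGG on the opposite strand, that begin 93 and 86 bases before the start, and no half-site. The window before the other Pdgfa start held 1 half-site and 1 GC box. Of 32851 promoter windows of this length, 38.6% held a half-site, 32.7% a GC box, 26.5% a GATA motif and 12.4% a TATA box. The window of Pdgfra (54.4% G and C) held none of these motifs, and that of Pdgfd held 1 GATA motif and 1 TATA box. No window was available for Pdgfrb or Pdgfb, so these 2 were not searched. A direct repeat of AGGTCA with 5 bases between was searched too. None of the member windows held it, and 3 of the 32851 windows did. G and C made up 72.4% of the Pdgfa window and 50.8% of the Pdgfc window, beside a median of 52.4% over all windows. A match is a run of letters and no evidence of binding. The motifs were chosen with the values known.

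Array medians ran from 7.76 to 7.86, and replicates correlated at 0.992 to 0.997 over all probe sets. The narrowest spreads of values were those of replicate 2 of the ES and of the EB group, and called counts of a gene list that move by over 1.5 times without these 2 arrays are given without them too. The labels were checked on known genes. Cyp26a1, the retinoic acid-degrading enzyme gene, was between 9.66 and 9.91 with DMSO and between 11.45 and 11.68 with ATRA, and Rarb rose from 6.98 ± 0.19 to 8.65 ± 0.12 (SD, n = 3). All 6 measured genes of the retinoic acid check list rose with ATRA. With DMSO against EBs, Cyp26a1 alone of them was called, higher by 0.75 ± 0.09 (SE, limma adjusted p = 0.0093). From ES cells to EBs, 2 of the 6 rose and 4 fell. The pluripotency genes Pou5f1 and Nanog lay between 13.26 and 13.55 in every array. Of 8 pluripotent markers, 2 rose and 1 fell in EBs, 3 fell with ATRA, and none was called with DMSO in limma, nor at an unadjusted p under 0.05 (0 of 8). No detection call came with the values, so whether a gene was above background was not tested. Precision is limited by there being 3 arrays in a group.

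Pdgfrb, the beta receptor gene, moved furthest of the members: it fell from ES cells to day 4 EBs and was higher with ATRA than in any other group. Its values were 9.30, 9.32 and 9.33 in ES cells, 8.25, 8.33 and 8.22 in EBs, 8.14, 8.18 and 8.14 with DMSO, and 9.65, 9.66 and 9.64 with ATRA. The ATRA arrays were the 3 highest, the ES arrays came next, and neither overlapped with the EB or DMSO arrays. Against DMSO, Pdgfrb rose with ATRA by 1.497 ± 0.043 on the log2 scale (SE, 2.82-fold, limma adjusted p = 1.37e-09), the rise ranked 17 among the 19938 genes. From ES cells to EBs it fell by 1.05 (SE 0.04, 2.07-fold, adjusted p = 2.22e-09). The ATRA level also stood above the ES level, by 0.33 ± 0.04 (1.26-fold, adjusted p = 4.97e-05). The ATRA rise was between 1.49 and 1.51 under all 24 alternative settings. Many of them, such as the gene filters, the replicate block and the fits without an ES or EB array, cannot move this difference. The range thus comes from the scaling, the array weights and the fits without a DMSO or ATRA array. In bulk samples, fewer cells that express a gene and less RNA per cell cannot be told apart, here and in what follows.

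Pdgfra, the alpha receptor gene, was highest in ES cells and lower in all embryoid bodies. It read 10.67, 10.68 and 10.69 in ES cells, 10.11, 10.21 and 10.07 in EBs, 10.20, 10.05 and 10.23 with DMSO, and 10.10, 9.89 and 9.99 with ATRA. All 9 embryoid body arrays lay below the ES arrays, whereas the 3 kinds of embryoid body overlapped with each other. The fall from ES cells to EBs was 0.55 on the log2 scale (SE 0.06, 1.46-fold, limma adjusted p = 2.09e-05). ATRA against DMSO gave -0.17 ± 0.06 (95% interval -0.30 to -0.03, adjusted p = 0.112), which did not pass. When the genes with the lower mean values were left out of the test (9969 kept), this difference had an adjusted p of 0.046. Both receptor genes thus fell in EBs, and Pdgfrb alone passed the test with ATRA.

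**Figure D1:**
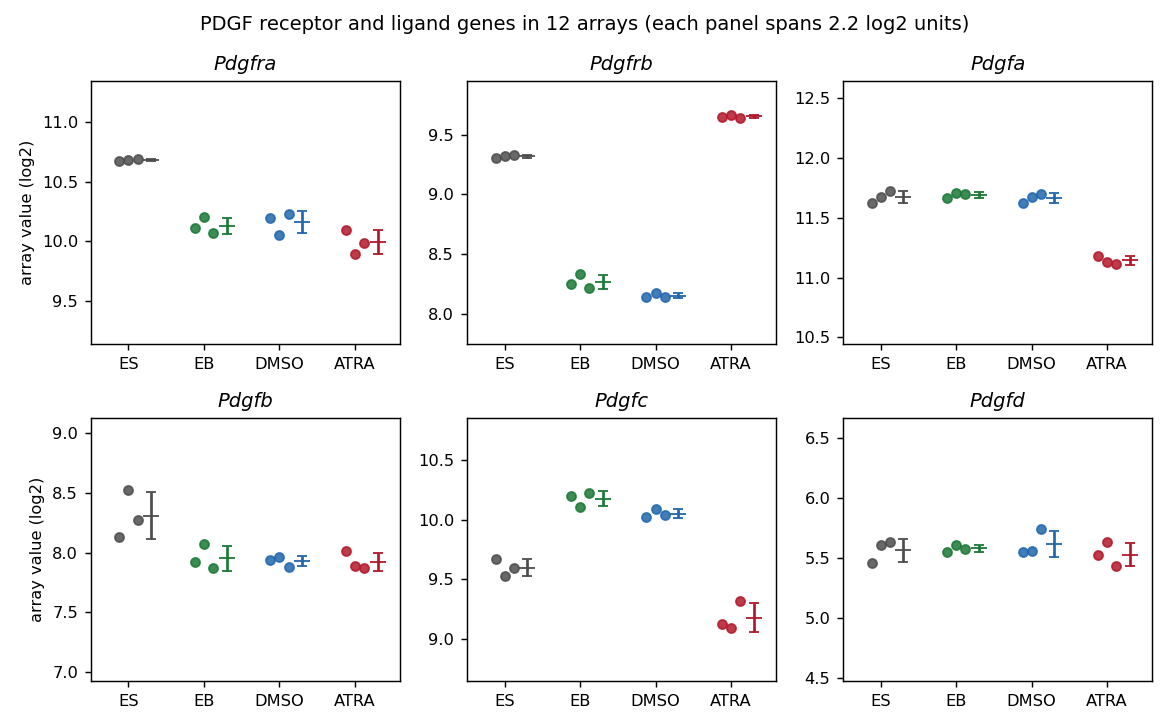
Array values (log2) of the 6 genes in the 3 arrays of each group, with the mean and SD beside the points. Pdgfrb was highest in the 3 ATRA arrays (9.64 to 9.66), while Pdgfa and Pdgfc were lowest there.

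Pdgfa, the gene of the main alpha receptor ligand, had overlapping levels in ES cells, EBs and DMSO-treated bodies and was lower with ATRA. It read 11.62, 11.67 and 11.73 in ES cells, 11.66, 11.70 and 11.70 in EBs, 11.62, 11.67 and 11.70 with DMSO, and 11.18, 11.13 and 11.11 with ATRA. The ATRA arrays were below all 9 others, which overlapped. The fall against DMSO was 0.52 on the log2 scale (SE 0.04, 1.44-fold, limma adjusted p = 7.64e-06). The ES to EB difference was 0.015 ± 0.044, with a 95% interval from -0.082 to 0.11.

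Pdgfc, the gene of a CUB-domain ligand of the alpha receptor, rose in EBs and fell below its ES level with ATRA. It read 9.67, 9.53 and 9.59 in ES cells, 10.20, 10.11 and 10.22 in EBs, 10.02, 10.09 and 10.04 with DMSO, and 9.13, 9.10 and 9.32 with ATRA. EB and DMSO arrays were all above the ES arrays, and the ATRA arrays were all below them. The rise from ES cells to EBs was 0.58 ± 0.06 (SE, 1.49-fold, limma adjusted p = 1.43e-05). The fall with ATRA against DMSO was 0.87 on the log2 scale (SE 0.06, 1.83-fold, adjusted p = 2.32e-06), ranked 34 among falls. Against ES cells, the ATRA level was lower by 0.42 (-0.42 ± 0.06, adjusted p = 2e-04). ATRA replicate 3 was the highest of its group, and without it the fall was 0.94 (-0.94).

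Pdgfb, the gene of the ligand of both receptors, fell a little from ES cells to EBs. It read 8.13, 8.52 and 8.27 in ES cells and 7.92, 8.07 and 7.87 in EBs, so the lowest ES array was just above the highest EB array. The fall was 0.35 on the log2 scale (SE 0.09, 1.28-fold, limma adjusted p = 0.00722). ES replicate 2 was the highest array, and without it the difference was -0.25. With any 1 array left out, the limma adjusted p lay between 0.00135 and 0.034. Without ES replicate 2 and EB replicate 2 together the difference was -0.31 ± 0.07 (limma adjusted p = 0.00588). Values were 7.93, 7.96 and 7.88 with DMSO and 8.01, 7.89 and 7.87 with ATRA. These groups overlapped, and their difference of -0.00267 had a 95% interval from -0.19 to 0.19.

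Pdgfd, the gene of the CUB-domain ligand of the beta receptor, ranged from 5.43 to 5.74 over the 12 arrays, and its groups overlapped in every comparison. Its ES to EB difference was 0.014 ± 0.069 and its ATRA difference -0.088 ± 0.069 (limma adjusted p = 0.914 and 0.462, 95% intervals -0.14 to 0.16 and -0.24 to 0.062). The group order of Pdgfd could not be read beyond this spread.

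From ES cells to day 4 EBs, 4 of the 6 genes were called in limma, where 34.7% of all genes tested were called. The 1 called higher (Pdgfc) stands beside 17.8% of all genes and the 3 called lower (Pdgfra, Pdgfrb and Pdgfb) beside 16.9%. The groups of these 4 genes did not overlap, which held for 41.3% of all genes. With ATRA against DMSO, 3 of the 6 were called, beside 13.3% of all genes. Pdgfrb was the 1 called higher (6.26% of all genes), and Pdgfa and Pdgfc were the 2 called lower (7.05%). Their groups did not overlap, as for 39.6% of all genes. DMSO against EBs gave 0 of 6 calls in limma, beside 0.747% of all genes (0.537% higher and 0.211% lower), and 1 of 6, Pdgfrb, had an unadjusted p under 0.05. There the Pdgfrb difference was -0.11 ± 0.04 (limma adjusted p = 0.226) and that of Pdgfc -0.13 ± 0.06 (limma adjusted p = 0.352). Both had groups that did not overlap, as 22.4% of all genes did. Consecutive comparisons share the EB or the DMSO arrays, so their values are given side by side and not correlated.

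The remaining pairs of groups serve to order the levels. ATRA against EBs gave 3 of 6 calls (18.4% of all genes), with Pdgfrb higher (7.79%) and Pdgfa and Pdgfc lower (10.6%), and the groups of these 3 did not overlap (36.7% of all genes). ATRA against ES cells gave 5 of 6 (36.6%), with Pdgfrb higher (17.5%) and 4 genes lower (19.1%), and 5 of 6 did not overlap (47.4%). DMSO against ES cells gave 4 of 6 (39% of all genes), with Pdgfc higher (18.4%) and 3 genes lower (20.6%), and 4 of 6 did not overlap (47.5%). For Pdgfrb the order was ATRA, ES, EB, DMSO, and all neighbours but EB and DMSO differed in limma. For Pdgfra it was ES, DMSO, EB, ATRA, and ES alone was separated from its neighbour. For Pdgfc it was EB, DMSO, ES, ATRA, with EB and DMSO not separated. For Pdgfa it was EB, ES, DMSO, ATRA, and ATRA alone was separated from its neighbour, and for Pdgfb the order was ES, EB, DMSO, ATRA with ES alone separated. Pdgfc was the member whose order in EBs and with ATRA went opposite to that of Pdgfrb, higher in EBs than in ES cells (0.58) and lower with ATRA than with DMSO (-0.87).

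**Figure D2:**
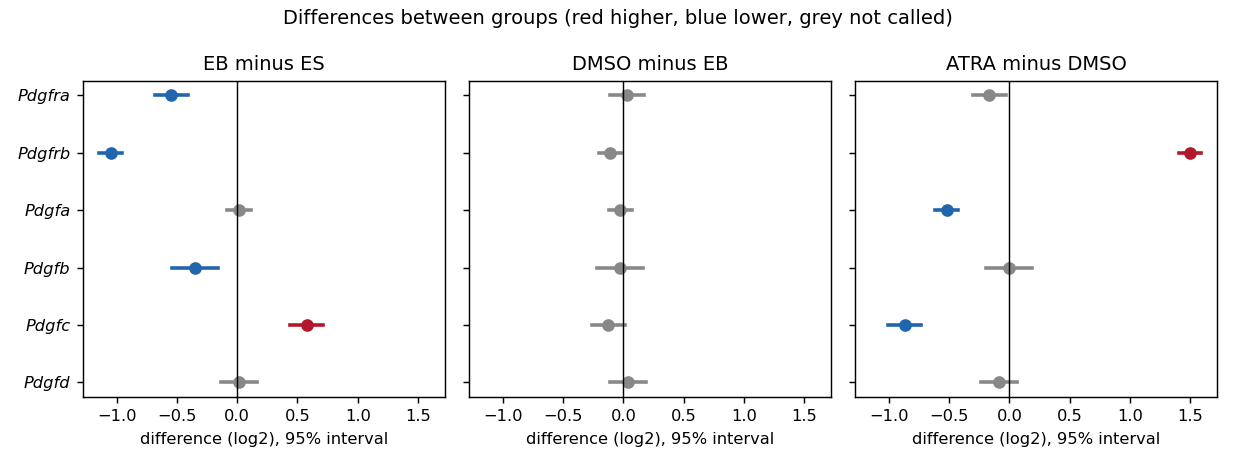
Log2 differences of the 6 genes in the 3 consecutive comparisons with 95% intervals from limma. In DMSO against EB no gene was called, and in ATRA against DMSO Pdgfrb was higher (1.497) and Pdgfa (-0.52) and Pdgfc (-0.87) lower.

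Other genes of the pathway were read from lists chosen with earlier results of these data known. Of all genes, 17.8% were called higher and 16.9% lower in EBs, 6.26% and 7.05% with ATRA, and 0.537% and 0.211% with DMSO. The list counts here and below stand beside these shares. Where only 1 or 2 genes of a list were called, this is not read as a result about the list. Of 13 genes that process or capture PDGF ligands, 4 rose and 5 fell from ES cells to EBs (median difference -0.03, beside -0.00043 over all genes). Plau, whose urokinase product can activate PDGF-D, fell by 2.33 on the log2 scale, and Plat, whose product tPA activates PDGF-C, by 0.74 (limma adjusted p = 4.28e-10 and 2.48e-07). Thbs1, a matrix protein gene, fell by 1.77, and Nrp1, a co-receptor gene, by 1.83. The 4 that rose were A2m (0.97 ± 0.09), St14 (0.58 ± 0.07), Sparc (0.45 ± 0.04) and Pcsk6 (0.36 ± 0.04). St14 and Pcsk6 are protease genes too, so protease genes of the list went both ways. With ATRA, 1 of the 13 rose and 3 fell (median -0.07, beside 0.01 over all genes). Lrp1, an endocytic receptor gene whose product binds the beta receptor, rose by 0.42 ± 0.07 (adjusted p = 0.00123). Pdgfrl, the PDGF receptor-like gene, fell by 0.44 on the log2 scale, A2m by 0.32 and Pcsk6, a proprotein convertase gene, by 0.15. With DMSO, Furin, a convertase gene whose product cleaves PDGF-A and PDGF-B precursors, rose by 0.24 ± 0.05 (adjusted p = 0.0402), 1 of 13. Without ES replicate 2 and EB replicate 2, 0 of them were called with DMSO.

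Adaptor and effector genes of the receptors changed by at most 0.56 among those named. From ES cells to EBs, 10 of 24 rose and 6 fell (median 0.06), with Grb10 (0.56 ± 0.05) and the receptor-binding scaffold gene Slc9a3r1 (0.56 ± 0.06) higher. Ptpn11, the phosphatase gene SHP2, and Grb2, the adaptor to Ras, were lower (-0.31 ± 0.04 and -0.30 ± 0.04, limma adjusted p = 1.23e-04 and 1.61e-04). With ATRA, 2 of 24 rose and 2 fell, beside 6.26% and 7.05% of all genes (median -0.00432). Sos2 (0.29 ± 0.05) and Stat5b (0.21 ± 0.05) were higher, and Pik3cb (-0.18 ± 0.05) and Slc9a3r1 (-0.22 ± 0.06) lower. With DMSO, 0 of 24 were called in limma and 7 had an unadjusted p under 0.05. Of 9 genes that attenuate the receptors, 2 rose and 3 fell in EBs (median -0.03). Ptprj, a receptor phosphatase gene, rose in EBs (0.31 ± 0.06, adjusted p = 0.00122), and with ATRA it was the gene of the 9 that fell (-0.45 ± 0.06, adjusted p = 1.98e-04, median -0.02). Socs3 fell in EBs (-0.47 ± 0.07). With DMSO, 0 of 9 were called, and 3 had an unadjusted p under 0.05.

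The related class III receptor kinases and their ligands were read in the same way. Kit, a receptor gene next to Pdgfra on the chromosome, rose with ATRA by 0.58 ± 0.06 (limma adjusted p = 6.22e-05), and Kitl, which encodes its ligand, fell by 0.51 on the log2 scale (adjusted p = 0.00588). These were the 2 calls among 7 genes (median 0.07). In EBs, the ligand genes Csf1 (-2.14 ± 0.08), Kitl (-1.58 ± 0.10) and Il34 (-0.66 ± 0.09) fell, 3 of 7 with none higher (median -0.18). With DMSO, 0 of 7 were called, and 0 had an unadjusted p under 0.05.

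The list of immediate early genes, which growth factor receptors can switch on, also holds the chemokine gene Ccl2. Its genes were mostly lower in EBs, where 11 of 15 fell and 1 rose (median -0.40). Ccl2 (-2.14 ± 0.06), Egr1 (-1.98 ± 0.06), Fos (-1.80 ± 0.08) and Fosl1 (-1.41 ± 0.07) led the falls (limma adjusted p from 1.65e-10 to 7.27e-09). With ATRA, 5 of 15 fell and none rose (median -0.13). Btg2 (-0.56 ± 0.05), Ccl2 (-0.55 ± 0.06), Egr1 (-0.52 ± 0.06) and Ier3 (-0.50 ± 0.06) were lower, at adjusted p from 5.94e-06 to 1.11e-04. Ier3 (0.36 ± 0.06) and Zfp36 (0.42 ± 0.08) rose with DMSO against EBs, and 0 of the 15 did without ES replicate 2 and EB replicate 2. Many growth factors and culture conditions act on these genes, and the part of PDGF was not tested.

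**Figure D3:**
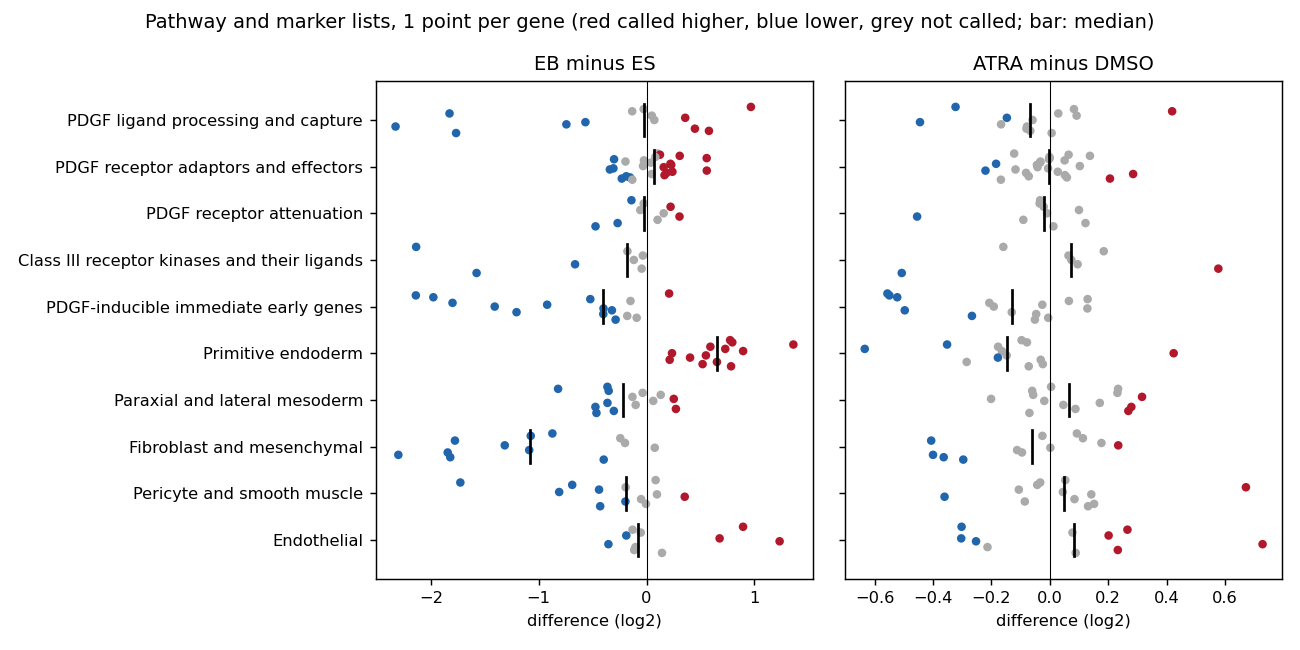
Log2 differences of the genes of 10 pathway and cell type lists, 1 point per gene, for EB against ES and for ATRA against DMSO, with the median of each list as a bar and a different scale in each panel. Immediate early genes (11 of 15 lower) and fibroblast genes (9 of 12 lower) sit to the left in EBs, and primitive endoderm genes (13 of 13 higher) to the right.

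Markers of cell types that carry PDGF receptors were set beside the members. Their counts stand beside 17.8% of all genes higher and 16.9% lower in EBs, and 6.26% and 7.05% with ATRA. Fibroblast and mesenchymal genes fell from ES cells to EBs in 9 of 12 cases (median -1.08), with S100a4 (-2.30 ± 0.07), Thy1 (-1.82 ± 0.06) and Dcn (-1.78 ± 0.06) among them, and their mean value went from between 9.26 and 9.27 in the ES arrays to between 8.15 and 8.24 in the EB arrays. Pdgfrb, Pdgfra and Pdgfb fell in the same comparison, and the part of fibroblast-type cells in that was not tested. With ATRA, where Pdgfrb rose, 1 of the 12 rose (Loxl1, 0.23 ± 0.04) and 4 fell (Vim at -0.30, Thy1 at -0.36, S100a4 at -0.40 and Dcn at -0.41), and the mean value went from between 8.10 and 8.17 to between 8.02 and 8.07. Of 12 pericyte and smooth muscle genes, 1 rose and 6 fell in EBs (median -0.20), with Acta2 at -1.73 ± 0.11, Des at -0.81 ± 0.09 and Anpep at -0.69 ± 0.04. With ATRA, Cnn1 rose (0.67 ± 0.08) and Mcam fell (-0.36 ± 0.05), and 10 of the 12 were not called (median 0.05). The mean value of the pericyte list was between 8.38 and 8.46 in ES arrays, 8.05 and 8.11 in EB arrays, 8.07 in DMSO arrays and between 8.11 and 8.15 in ATRA arrays, and its part in the Pdgfrb rise was not tested. The genes of this list not called with ATRA were Rgs5 at 0.15, Kcnj8 at 0.14, Tagln at 0.13, Myh11 at 0.08 and Abcc9 at 0.05. The others were Des at 0.04, Acta2 at -0.03, Anpep at -0.04, Notch3 at -0.09 and Cspg4 at -0.11. For these 10 genes the limma adjusted p ran from 0.156 to 0.88, and they were added after their values were seen.

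From ES cells to EBs, primitive endoderm genes went the other way from Pdgfra, which marks that layer in the embryo. All 13 measured genes rose (median 0.65), with Dab2 (1.36 ± 0.06), Gata4 (0.90 ± 0.07), Col4a2 (0.80 ± 0.06) and Srgn (0.78 ± 0.06) ahead, while Pdgfra fell. The list's mean value was between 10.28 and 10.31 in ES arrays and between 10.92 and 10.98 in EB arrays. With ATRA, Gata6 rose (0.42 ± 0.05) and Fst (-0.63 ± 0.06), Dab2 (-0.35 ± 0.06) and Lamb1 (-0.18 ± 0.05) fell, 1 and 3 of 13 (median -0.15, beside -0.17 for Pdgfra, which was not called). Gata6 also rose with DMSO (0.25 ± 0.05, limma adjusted p = 0.0488), a call lost without ES replicate 2 and EB replicate 2. Of 14 mesoderm genes, 2 rose and 7 fell in EBs (median -0.22), Tbx6 (0.27 ± 0.05) higher and Foxc2 (-0.82 ± 0.08), Snai1 (-0.47 ± 0.06) and Twist1 (-0.46 ± 0.08) lower. With ATRA, the somite genes Meox1 (0.32 ± 0.07) and Tcf15 (0.27 ± 0.06) and Snai1 (0.28 ± 0.06) rose, 3 of 14 with none lower (median 0.07), and 5 of 14 rose without ES replicate 2 and EB replicate 2. Without these 2 arrays, 1 mesoderm gene rose in EBs.

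Endothelium and megakaryocytes are known sources of PDGF-B. Of 10 endothelial genes, 3 rose and 2 fell in EBs (median -0.08), Flt1 (1.23 ± 0.07), Cdh5 (0.90 ± 0.05) and Esam (0.68 ± 0.09) higher and Pecam1 (-0.35 ± 0.05) lower. Without ES replicate 2 and EB replicate 2, 1 endothelial gene and 0 blood genes fell in EBs. With ATRA, 4 rose and 3 fell (median 0.08), Pecam1 at 0.73 ± 0.05 and Cdh5 at -0.30 ± 0.05. Of 8 megakaryocyte and blood genes, Itga2b alone was called, lower in EBs (-0.20 ± 0.05) and higher with ATRA (0.18 ± 0.05, limma adjusted p = 0.0446). Of all genes, 16.9% were called lower in EBs and 6.26% higher with ATRA. Pax6 (0.70 ± 0.09), Olig1 (0.33 ± 0.06) and Sox10 (0.23 ± 0.07) of 9 neural and oligodendrocyte precursor genes rose with ATRA and Ncam1 (-0.39 ± 0.05) fell. In EBs, 2 of the 9 rose and 1 fell. With DMSO, none of the fibroblast, pericyte, mesoderm, endothelial, blood or neural genes was called in limma, and at an unadjusted p under 0.05 there were 0, 1, 0, 1, 2 and 1 of them, in that order.

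The genes nearest to a member in pattern were found by the root mean square difference over the 12 arrays, after each gene was centred on its own mean, for the 4 members whose group means spanned at least 0.5. For Pdgfrb these were Gfra1, a GDNF co-receptor gene (0.08 on the log2 scale), Adgra2, an adhesion G protein-coupled receptor gene (0.10), Smyd2, a lysine methyltransferase gene (0.11), and Sorcs2, a sortilin family receptor gene (0.12). The group means of Gfra1 were 9.96 in ES cells, 8.90 in EBs, 8.70 with DMSO and 10.19 with ATRA. Nearest to Pdgfc were Socs2 (0.08), a cytokine signalling suppressor gene, Dnah8 (0.09), Armcx1 (0.11) and Nr5a2 (0.11), a nuclear receptor gene of pluripotent cells. Nearest to Pdgfa were Ctbp2 (0.05), a co-repressor gene, Cyb5r1 (0.06), the Notch ligand gene Jag1 (0.06) and Plec (0.07). Nearest to Pdgfra were Gprc5b (0.06), Igf2r (0.06), the syndecan gene Sdc1 (0.06) and Itpripl1 (0.07). The 12 arrays fall into 4 groups and are not 12 independent conditions.

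**Figure D4:**
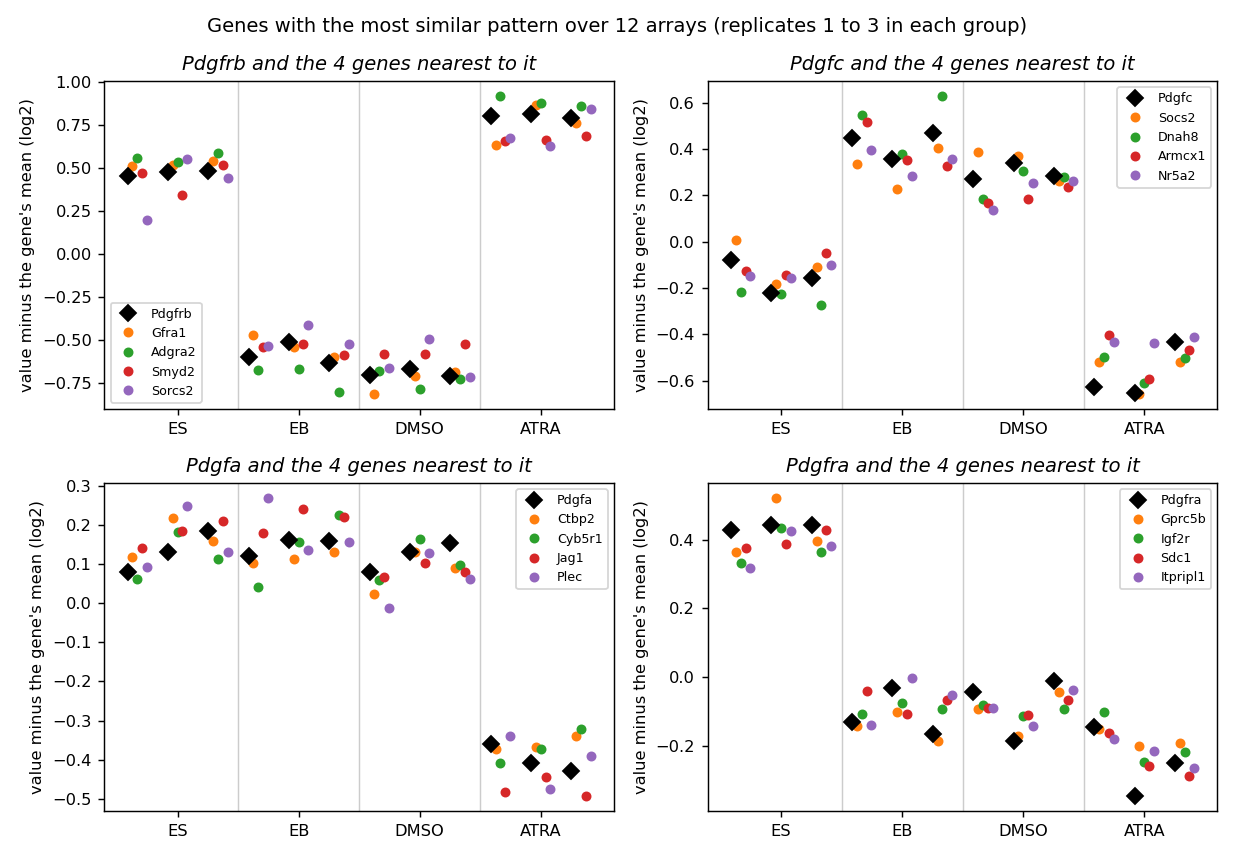
Values of 4 members and of the 4 genes nearest to each, minus the gene's mean over 12 arrays (log2), for the 3 arrays of each group. Pdgfrb and its nearest genes were low in EB and DMSO and highest with ATRA, and the nearest genes of Pdgfc and Pdgfa were lowest with ATRA. The genes were chosen for this likeness over the same arrays.

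The genes that flank the members were looked up in the RefSeq order of GRCm38.p6, a choice made with the values known. On chromosome 18, Cdx1, a caudal homeobox gene, is the nearest measured protein-coding gene on 1 side of Pdgfrb and Csf1r that on the other side. Cdx1 rose with ATRA by 1.31 ± 0.09 and fell in EBs by 0.47 on the log2 scale (SE 0.09, limma adjusted p = 1.13e-06 and 0.00101). Csf1r differed by 0.18 ± 0.11 and -0.18 ± 0.11 (adjusted p = 0.333 and 0.265), and the next genes outward, Slc6a7 and Hmgxb3, were not called either. On chromosome 5, the measured genes next to Pdgfra are Gsx2 and Kit, and Kit rose with ATRA while Pdgfra was not called. Of 24 flanking genes of the 6 members, 2 on each side, 4 rose and 5 fell in EBs, beside 17.8% and 16.9% of all genes. With ATRA, 2 rose and 2 fell, beside 6.26% and 7.05% of all genes. The 2 that rose were Cdx1 and Kit. The 2 that fell, Apobec3 (-0.30 ± 0.06) and the Polycomb gene Cbx7 (-0.37 ± 0.06), lie beside Pdgfb, whose own ATRA difference was -0.00267. None of the 4 measured neighbours of Pdgfa or of Pdgfc was called with ATRA.

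**Figure D5:**
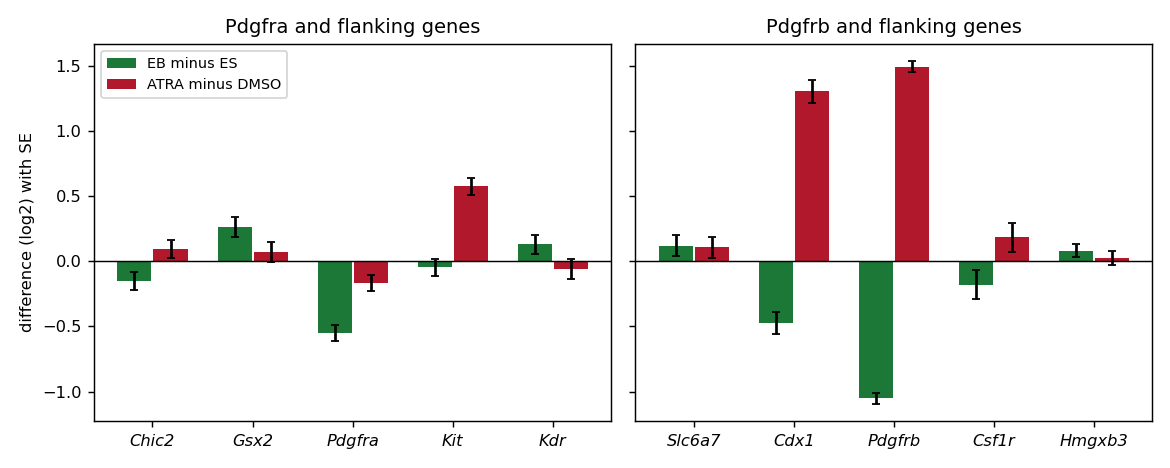
Log2 differences with SE for Pdgfra and Pdgfrb and the 2 nearest measured protein-coding genes on each side, in chromosome order, for EB against ES and ATRA against DMSO. Beside Pdgfrb (1.497 with ATRA) stands Cdx1 (1.31), and beside Pdgfra (-0.17) stands Kit (0.58).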

How the data were processed

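The authors deposited 1 table with log2 values of 35556 probe sets in 12 samples. That they are log2 values was read from their range (2.30 to 14.7). How background was corrected and arrays were normalized and summarized is not given in the sources used here. Such values hide changes of total RNA per cell. The platform annotation gave 1 symbol for 21789 probe sets, several for 1621 and was silent on 12146. Where a gene had several single-symbol probe sets, that of highest mean stood for it, giving 19938 genes with no filter. Each member had 1 probe set.

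Groups came from the sample titles. A limma 3.58.1 model (R 4.3.3) held a mean per group for all 12 arrays, with eBayes defaults (degrees of freedom 8 residual, 3.93 prior), and p-values, all two-sided, were adjusted by Benjamini-Hochberg across all genes at 0.05. The code was tested on simulated data. Differences are given ± SE and levels ± SD. Replication is as labelled (biological), and p-values speak to the spread between those samples. In each list, the text could name up to 4 called genes by smallest adjusted p, or the 2 of largest difference. Named besides were the ligand processing genes that rose in EBs and the pericyte and smooth muscle genes not called with ATRA. Loxl1, the fibroblast gene that rose with ATRA, was also named outside that rule. Some listed genes are not reported here. The members, lists and rules were chosen with earlier results of these data known. Alternatives changed the scaling (quantile, median), the filter, the probe sets, the prior, the array weights, the groups or arrays fitted, the replicate block and the threshold. RefSeq promoter windows covered 4 of the 6 members, all but Pdgfrb and Pdgfb.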

Additional observations from a re-analysis of the deposited data

How the results depend on the processing

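The calls of Pdgfra, Pdgfrb, Pdgfb and Pdgfc in EBs and of Pdgfrb, Pdgfa and Pdgfc with ATRA held under every alternative run on single genes that kept the gene. The 1.5-fold limit was run on counts alone, and of these calls Pdgfra (1.46-fold), Pdgfb (1.28-fold) and Pdgfc (1.49-fold) in EBs and Pdgfa (1.44-fold) with ATRA lie under it. The filter above the median dropped Pdgfb and Pdgfd, and that above the lower quartile dropped Pdgfd. Pdgfra with ATRA passed among the genes above the median (-0.17, adjusted p = 0.046; range over alternatives 0.046 to 0.358), where fewer genes were tested.

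Uncalled differences near 0 changed sign, and the cause was not tested. In EBs against ES cells these were Pdgfd with quantile normalization (-0.030) and array weights (-0.051) and Pdgfa with array weights (-0.031). In DMSO against EBs, Pdgfb gave 0.0057 with array weights and 0.032 without ES replicate 2 and EB replicate 2, and without both it gave 0.029 in ATRA against EBs. Pdgfd in ATRA against ES cells gave 0.0056 with median centring. In DMSO against ES cells, Pdgfd gave -0.0012 with quantile normalization and -0.021 with array weights, and Pdgfa 0.039 with median centring. With 1 array left out, EB against ES ranged from -0.011 to 0.042 for Pdgfa and from -0.041 to 0.047 for Pdgfd. DMSO against EB ranged from -0.0047 to 0.083 for Pdgfra, from -0.070 to 0.032 for Pdgfb and from -0.024 to 0.071 for Pdgfd. For Pdgfb, ATRA against DMSO ranged from -0.047 to 0.024 and ATRA against EB from -0.074 to 0.029. For Pdgfd, ATRA against ES ranged from -0.093 to 0.0096 and DMSO against ES from -0.010 to 0.084. For Pdgfa, DMSO against ES ranged from -0.035 to 0.017.

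Of the counts over all genes, the 149 calls of DMSO against EBs moved most. They were 253 with quantile normalization, 761 above the median, 365 above the lower quartile, 476 over all probe sets, 626 with a trend and robust prior, 25 with only the groups compared, 27 without ES replicate 2 and EB replicate 2, 5 at an adjusted p of 0.01 and 18 with a 1.5-fold limit. With 1 array left out they ranged from 0 (limma, without EB replicate 1, where 3080 genes had an unadjusted p under 0.05) to 237. The 1.5-fold limit left 1433 genes for EB against ES, 342 for ATRA against DMSO, 372 for ATRA against EB, 1501 for ATRA against ES and 1644 for DMSO against ES. An adjusted p of 0.01 left 1605 for ATRA against DMSO and 2126 for ATRA against EB. Array weights gave 4311 for ATRA against DMSO and 11052 for ATRA against ES.

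Same-numbered replicates did not deviate together in every comparison (correlations from -0.046 to 0.411 over the 6 comparisons), so the numbers were not taken to pair the samples. In EB against ES the correlations were 0.209, 0.411 and -0.0432 for replicates 1, 2 and 3. With the replicate block, 6848 genes were called for EB against ES, 62 for DMSO against EBs and 2553 for ATRA against DMSO, and no member call changed. Each array correlated best with its own number for 2, 1 and 0 of 3 numbers in these comparisons, and for 3 of 3 in DMSO against ES cells (correlations 0.117, 0.0699 and 0.0518). The values of EB against ES and of DMSO against ES are hints of pairing from the data and not from the design.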
